A study of Homo sapiens with 6 samples.

Results

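The amino acid transporters described here are 10 plasma membrane carriers of the solute carrier (SLC) families, SLC7A11, SLC7A5, SLC3A2, SLC7A1, SLC1A4, SLC1A5, SLC38A1, SLC38A2, SLC6A9 and SLC43A1, and many of them are known targets of the stress transcription factor ATF4. They were chosen by gene symbol, with earlier results of these data known. All 10 were found among the 60662 genes with a value and passed the filter on low expression. Their mRNA was measured by RNA-seq in HCT116 cells, an established human colorectal carcinoma line. The shCtrl group was stably transduced with a lentiviral vector carrying a nontarget control shRNA. The GMDS-AS1 KD group carried GMDS-AS1 shRNA2, which targets the long noncoding RNA GMDS-AS1, in the same vector. Each group had 3 libraries, labelled as biological replicates. A second shRNA and other cell lines of the study were not part of these libraries, so the knockdown rests on 1 hairpin in 1 line. The comparison asks how the mRNAs of these carriers differed when GMDS-AS1 was depleted.

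Cells import amino acids through carriers that differ in what they move and what drives them. SLC7A5 and SLC7A11 are light chains that pair with the heavy chain SLC3A2 (CD98) and exchange an intracellular amino acid for an extracellular one, leucine and other large neutral amino acids in the case of SLC7A5 and cystine against glutamate in the case of SLC7A11. SLC1A5, SLC38A1 and SLC38A2 bring in glutamine and other small neutral amino acids with sodium. When amino acids run short, the kinase GCN2 phosphorylates eIF2α, translation of ATF4 rises, and ATF4 with its C/EBP partners induces carriers and biosynthetic enzymes in many cell types.

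All 10 transporter mRNAs fell in GMDS-AS1 KD cells, and no KD library of any of them reached into the shCtrl range. Their summed level was 1997.1, 1959.7 and 1949.7 TPM (expression normalized for transcript length and library total) with shCtrl and 676.2, 668.5 and 677.9 TPM with KD. The KD mean of this sum was 34.2% of the shCtrl mean as deposited, and 40.6% after the scaling described below. SLC1A4, the SLC3A2 heavy chain and its light chains SLC7A5 and SLC7A11 fell most, and SLC38A1 fell least. The median log2 fold change of the members was -1.11, beside 0.00 for all genes tested. At a limma adjusted p under 0.05, 10 of 10 members were lower and none higher, where 25.9% of all 16901 genes tested were lower and 28.5% higher. With a change of at least 2-fold in addition, 6 members were lower and none higher, beside 4.24% and 2.93% of all genes tested, and with TPM as deposited 7 were lower, beside 6.96%. Since earlier results of these data were known when the members were chosen, these counts describe them and are not an independent test. In TPM as deposited, 44.9% of all genes tested had KD values below every shCtrl value, so the absence of overlap alone sets few genes apart. RNA came from whole cultures, in which fewer cells of a type and less RNA per cell cannot be told apart.

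**Figure D1:**
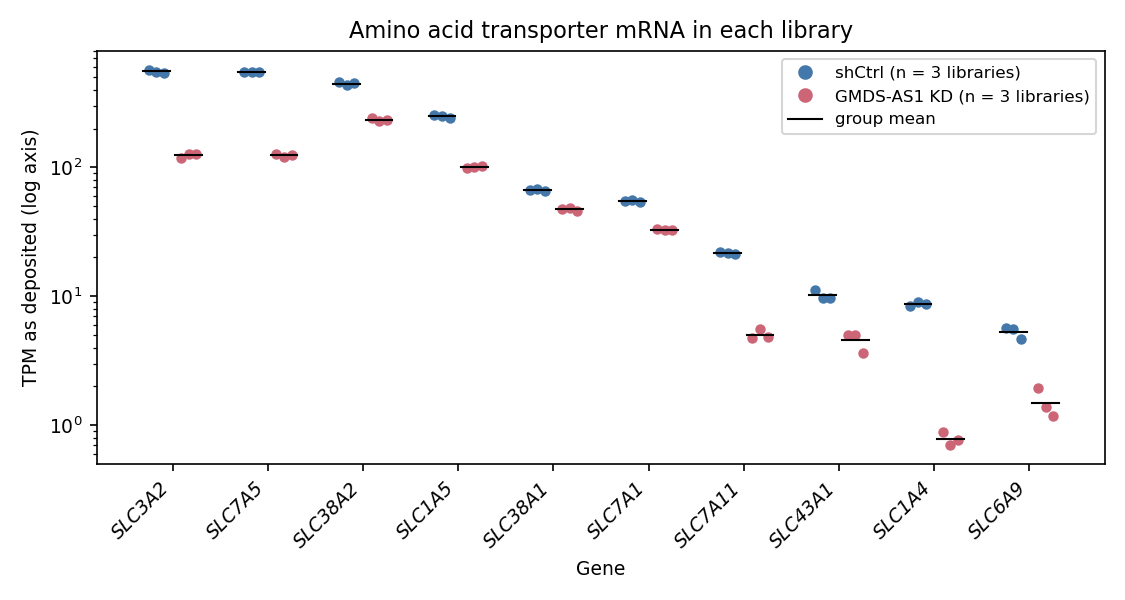
TPM of each transporter in every library on a log axis, with shCtrl libraries in blue, GMDS-AS1 KD libraries in red and black lines at the means of 3 libraries per group. The KD points lie below the shCtrl points for all 10 genes, most widely for SLC1A4, from 8.72 to 0.787 TPM, and least for SLC38A1, from 66.6 to 47.2 TPM.

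Fold changes were computed on log2(TPM + 1) after scaling the libraries by a trimmed mean of log ratios, a scale that understates changes at low TPM. The factors moved the KD libraries up against the shCtrl libraries by 0.25 on the log2 scale. TPM values and percents of the shCtrl mean given for single genes are as deposited. For genes that fell, they therefore show larger falls than the scaled fold changes beside them. With TPM as deposited the median of all genes was at -0.20, 40.3% of genes were lower at a limma adjusted p under 0.05, and the counts of lower and higher genes were 6814 and 2756 in place of 4372 and 4810. Upper quartile scaling gave 5198 and 3974. GMDS-AS1 itself, listed under the symbol GMDS-DT, measured 1.66, 2.21 and 1.34 TPM with shCtrl against 0.88, 0.91 and 0.79 TPM with KD. Its log2 fold change was -0.41 (SE 0.14, limma adjusted p = 0.0407). The limma adjusted p was 0.0289 to 0.117 when each library was left out, under 0.05 only without shCtrl replicate 3. Of 10 epithelial markers 7 were tested and 3 fell, the keratins KRT18, KRT8 and KRT19 (log2 fold changes of -1.83, -1.46 and -0.26), whose part in the results was not tested. EPCAM was at 141 to 165 TPM over the 6 libraries, and VIL1, LGALS4 and CDH17 were at no more than 0.54 TPM. Of 8 markers of leukocytes, endothelium and fibroblasts, CD68 (6.35 to 8.21 TPM) and COL1A1 (10.0 to 14.4 TPM) were tested and neither passed, though COL1A1 was lower with TPM as deposited (limma adjusted p = 0.0044), and PTPRC was listed at 0 in every library.

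The members are protein-coding genes on 8 chromosomes (GENCODE v29, GRCh38). SLC38A1 (chr12:46183063-46270017) and SLC38A2 (chr12:46358189-46372867) are neighbours on the minus strand, while the paired chains SLC3A2 (chr11:62856102-62888875, plus strand), SLC7A5 (chr16:87830023-87869488, minus strand) and SLC7A11 (chr4:138164097-138242349, minus strand) lie apart. Promoter windows of 250 bases before to 50 bases after a RefSeq gene start (GRCh38.p14) were matched by symbol for 9 of the 10 members, all but SLC7A11, in 16 windows. They were searched on both strands for TGATGNAA, the core of the composite element that ATF4 and C/EBP proteins bind. The following matches are shown because they are where these transporters share the letters, written 5' to 3' along the gene's strand with the motif or its reverse complement in capitals.
SLC1A4, chr2:64989381-64989410, plus strand: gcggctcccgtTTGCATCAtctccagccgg
SLC3A2, chr11:62881725-62881748, plus strand: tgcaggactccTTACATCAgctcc
SLC7A1, chr13:29595663-29595692, minus strand: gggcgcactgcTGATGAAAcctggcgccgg
SLC38A1, chr12:46266502-46266531, minus strand: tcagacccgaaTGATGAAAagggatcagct
SLC1A5, chr19:46784893-46784922, minus strand: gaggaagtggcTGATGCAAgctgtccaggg
These 5 of 9 members had a match, beside 4.46% of the 27305 genes with a window. Counted by window, 5 of 16 held the letters, beside 3.62% of all 35116 windows. The members were chosen as carriers of which many are known ATF4 targets, so these shares are not independent of the choice. The matches began at position -7 for SLC1A4, -4 for SLC38A1, 7 for SLC7A1, 37 for SLC3A2 and -97 for SLC1A5, counted from the gene start of their window. Only that of SLC1A5 lay wholly within the 250 bases before the start, where 3.89% of genes had one. The windows of SLC7A5, SLC38A2, SLC43A1 and SLC6A9 did not hold these letters.

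The core of the antioxidant response element, TGACNNNGC, through which NFE2L2 acts, was found in the windows of SLC1A5, SLC3A2, SLC7A1 and SLC7A5, 4 of 9 members beside 16.1% of genes. The E-box CACGTG, a site of MYC and related factors, was found for SLC1A5, SLC43A1 and SLC7A5, 3 of 9 members beside 8.77% of genes. Counted by window, 4 of 16 held TGACNNNGC and 3 of 16 held CACGTG, beside 13.3% and 7.26% of all windows. Both matches of SLC1A5 were in a window of another start than its TGATGNAA match. These are shown for SLC7A5, the most abundant light chain, which held both.
SLC7A5 E-box, chr16:87869621-87869648, minus strand: gccggacgacgCACGTGctccgagctgg
SLC7A5 TGACNNNGC, chr16:87869491-87869520, minus strand: ggcggggttccTGACGCAGCtgcgggcggc
No match to any of these motifs overlapped a match to another, and a match is a description of letters, not of a bound site.

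SLC3A2, the heavy chain that carries the light chains to the plasma membrane, was with SLC7A5 the most abundant member in shCtrl cells. It measured 573.17, 552.55 and 541.65 TPM with shCtrl against 118.71, 127.09 and 126.65 TPM with KD. Every KD library was thus far below every shCtrl library, and the KD mean was 22.3% of the shCtrl mean. The log2 fold change was -1.91 (SE 0.037, limma adjusted p = 2.85e-07). Only 0.337% of the genes tested had a lower fold change.

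SLC7A5 (LAT1), the leucine-exchanging light chain, measured 543.90, 552.68 and 552.99 TPM with shCtrl against 125.98, 120.11 and 125.17 TPM with KD. The libraries of each group lay close together, and the KD mean was 22.5% of the shCtrl mean. Its log2 fold change was -1.90 (SE 0.025, limma adjusted p = 8.79e-08). The ratio of SLC7A5 to SLC3A2, light to heavy chain, was 0.949, 1.00 and 1.02 in the shCtrl libraries and 1.06, 0.945 and 0.988 in the KD libraries. The groups overlapped in it (exact permutation test, two-sided, p = 1.0), which does not depend on the scaling between libraries and, like the other ratios of gene pairs below, was chosen after the values were seen. SLC7A5 has near-identical pseudogene copies, of which SLC7A5P1 was listed at 0 in every library and SLC7A5P2 at 1.22 to 3.93 TPM, both far below SLC7A5 itself.

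SLC7A11 (xCT), the cystine and glutamate exchanger that feeds glutathione synthesis, was the less abundant of these light chains. It measured 22.17, 21.47 and 21.20 TPM with shCtrl against 4.73, 5.59 and 4.83 TPM with KD. Every KD library was far below the lowest shCtrl library, and the log2 fold change was -1.68 (SE 0.077, limma adjusted p = 5.51e-06). The ratio of SLC7A5 to SLC7A11 was 25.5 ± 0.815 (SD, n = 3) in shCtrl cells and 24.7 ± 2.79 (SD, n = 3) in KD cells, and the groups overlapped. The antisense gene SLC7A11-AS1, which overlaps it on the other strand, fell as well, from 2.12 to 0.233 TPM on average (log2 fold change -1.22, limma adjusted p = 0.00236). How reads were assigned by strand is not given in the sources used here, so the reads of the pair cannot be told apart.

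The makeup of the SLC3A2 light chains differed between the groups. SLC7A6 (y+LAT2), which exchanges arginine for neutral amino acids, measured 20.89, 16.82 and 18.53 TPM with shCtrl against 19.12, 18.07 and 20.91 TPM with KD. These values overlapped, and its log2 fold change of 0.28 (limma adjusted p = 0.0304) was 0.05 with TPM as deposited (limma adjusted p = 0.68) and 0.20 with upper quartile scaling (limma adjusted p = 0.0977). Within the summed TPM of 6 light chains, SLC7A6 took 3.15% ± 0.355 (SD, n = 3) in shCtrl cells and 12.9% ± 0.726 (SD, n = 3) in KD cells. SLC7A5 took 92.3% ± 0.456 (SD, n = 3) and 82.6% ± 0.444 (SD, n = 3). Neither share overlapped between the groups, and the exact permutation test of each, two-sided, gave p = 0.1, the smallest that 3 libraries against 3 allow, so that it cannot pass 0.05. Over the 21 within-library ratios and shares compared, the Benjamini-Hochberg adjusted value of this exact p was 0.162. The share of SLC7A11 was 3.63% ± 0.102 (SD, n = 3) and 3.38% ± 0.397 (SD, n = 3), with overlap. SLC7A8 (LAT2) fell from 4.57, 4.24 and 4.10 TPM to 1.42, 1.24 and 0.95 TPM (log2 fold change -1.10, limma adjusted p = 0.000243) and was named after its values were seen, and SLC7A7 and SLC7A10 stayed at or below 0.78 TPM in every library.

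**Figure D2:**
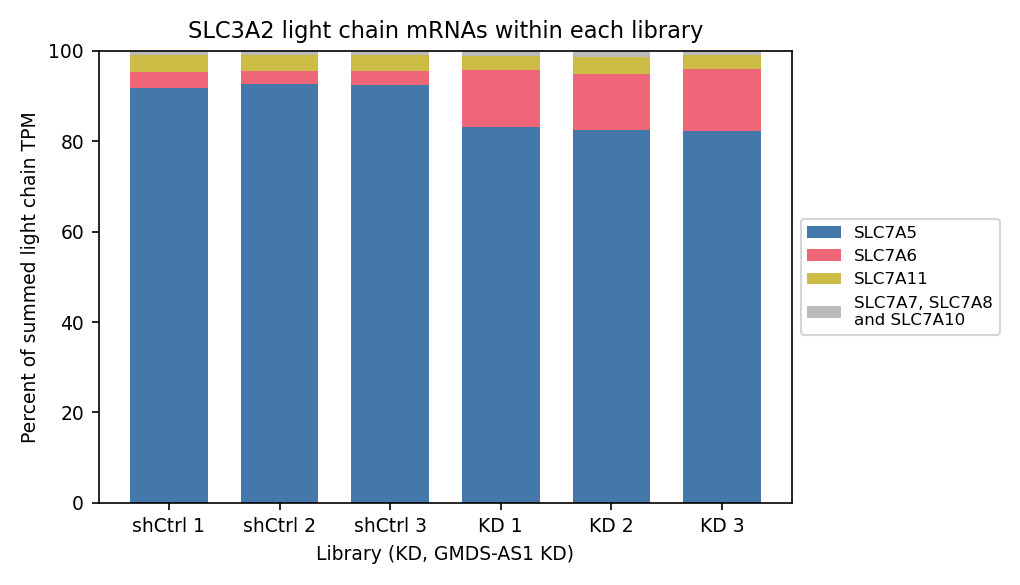
Stacked bars of the percent of summed light chain TPM taken by each SLC3A2 light chain within each of the 3 shCtrl and 3 GMDS-AS1 KD libraries. SLC7A5 fills 91.8 to 92.7% of the shCtrl bars and 82.3 to 83.1% of the KD bars, and SLC7A6 widens from 2.82 to 3.53% to 12.4 to 13.7%.

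Of the neutral amino acid exchangers of the SLC1 family, SLC1A4 (ASCT1), which moves alanine, serine and cysteine, had the largest log2 fall among the members. It measured 8.45, 9.04 and 8.67 TPM with shCtrl against 0.89, 0.70 and 0.77 TPM with KD. The KD libraries were all under 1 TPM, and the KD mean was 9.02% of the shCtrl mean. The log2 fold change was -2.28 (SE 0.089, limma adjusted p = 2.91e-06), and it was -3.09 with a pseudocount of 0.1 in place of 1.

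SLC1A5 (ASCT2), the glutamine carrier of the same family, was far more abundant and fell less. It measured 255.24, 249.44 and 242.81 TPM with shCtrl against 98.76, 100.30 and 102.34 TPM with KD. The KD mean was 40.3% of the shCtrl mean, with a log2 fold change of -1.06 (SE 0.027, limma adjusted p = 7.76e-07). The ratio of SLC1A5 to SLC1A4 went from between 27.6 and 30.2 in shCtrl cells to between 111 and 143 in KD cells, without overlap (exact permutation test, two-sided, p = 0.1, the smallest possible). The antisense gene ENSG00000275719, which overlaps SLC1A5, went from 1.55 to 0.143 TPM on average (limma adjusted p = 0.00764).

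The sodium-coupled neutral carriers of the SLC38 family fell less than SLC3A2 and its light chains SLC7A5 and SLC7A11, with 95% intervals apart. SLC38A2 (SNAT2), which is induced when cells lack amino acids, measured 455.52, 435.65 and 448.83 TPM with shCtrl against 240.03, 227.39 and 234.44 TPM with KD. The KD mean was 52.4% of the shCtrl mean and the log2 fold change was -0.68 (SE 0.03, limma adjusted p = 4.61e-06). With this smaller fall it was the most abundant member in KD cells.

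SLC38A1 (SNAT1), its neighbour on chromosome 12 and also a glutamine carrier, fell least. It measured 66.86, 67.76 and 65.16 TPM with shCtrl against 47.19, 48.42 and 46.07 TPM with KD. The groups did not overlap, but the log2 fold change was only -0.24 (SE 0.037, limma adjusted p = 0.0015), and 31.4% of the genes tested had a lower one. With TPM as deposited its log2 fold change was -0.49. The ratio of SLC38A2 to SLC38A1 was 6.71 ± 0.246 (SD, n = 3) in shCtrl cells and 4.96 ± 0.226 (SD, n = 3) in KD cells, without overlap (exact permutation test, two-sided, p = 0.1, the smallest possible).

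SLC7A1 (CAT1), the main importer of arginine and lysine, works without SLC3A2. It measured 55.06, 55.81 and 54.10 TPM with shCtrl against 33.00, 32.47 and 32.85 TPM with KD. The libraries within a group differed little, and the KD mean was 59.6% of the shCtrl mean (log2 fold change -0.49, SE 0.032, limma adjusted p = 2.51e-05). SLC7A2, the related cationic carrier, was lower in level and fell from 5.66 ± 0.458 to 1.82 ± 0.193 TPM (mean ± SD, n = 3 each), a log2 fold change of -1.06 (limma adjusted p = 0.000138).

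The remaining members had low mRNA levels and a wider spread. SLC6A9 (GLYT1), the sodium-coupled glycine carrier, measured 5.63, 5.54 and 4.63 TPM with shCtrl against 1.94, 1.38 and 1.17 TPM with KD. The groups did not overlap, and the log2 fold change was -1.16 (SE 0.14, limma adjusted p = 0.000499). On the other strand it overlaps CCDC24, at 19.5 TPM in shCtrl and 10.1 TPM in KD cells on average, and the noncoding gene ENSG00000230615, at 4.58 and 0.953 TPM. Both of these fell too (adjusted p = 0.00181 and 6.77e-05 from limma), so reads from them and from SLC6A9 cannot be told apart if strand was not used.

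SLC43A1 (LAT3), which lets large neutral amino acids cross without exchange, measured 11.12, 9.73 and 9.68 TPM with shCtrl against 5.02, 5.05 and 3.66 TPM with KD. KD replicate 3 was the lowest, and the highest KD library stayed below every shCtrl library. The log2 fold change was -0.80 (SE 0.13, limma adjusted p = 0.00181), under 2-fold, and with TPM as deposited it was -1.01. Its close relative SLC43A2 (LAT4) moved the other way, from 4.67, 5.04 and 4.61 TPM to 7.46, 7.10 and 7.93 TPM (log2 fold change 0.77, limma adjusted p = 0.000145).

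**Figure D3:**
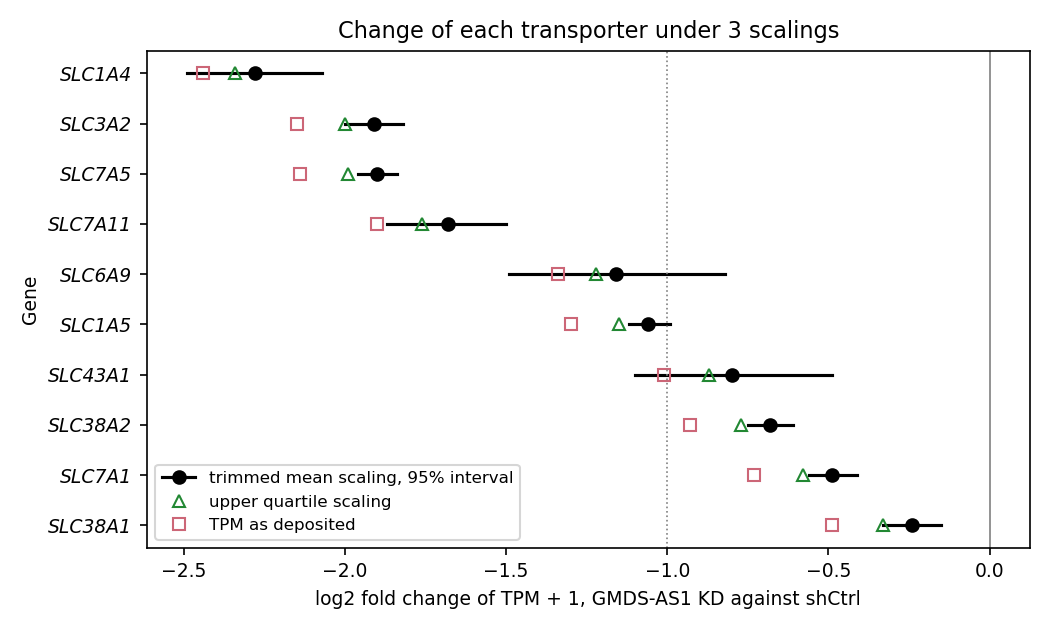
Log2 fold change of TPM + 1 of each transporter between GMDS-AS1 KD and shCtrl cells, with the 95% interval from limma in black for the trimmed mean scaling and open symbols for upper quartile scaling and TPM as deposited. All values are below 0 under the 3 scalings, from -2.28 for SLC1A4 to -0.24 for SLC38A1 with the trimmed mean, and the deposited values lie further to the left.

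The falls were graded. The 95% interval of SLC1A4, from -2.49 to -2.07, did not reach that of SLC3A2, from -2.00 to -1.82. Those of SLC3A2, SLC7A5 and SLC7A11 overlapped in turn. The interval of SLC7A11 all but met that of SLC6A9, which began at -1.49, and with a pseudocount of 0.1 their log2 fold changes were -1.84 (SE 0.086) and -1.54 (SE 0.2), so these neighbours were not clearly apart. From SLC6A9 through SLC1A5 and SLC43A1 to SLC38A2 each interval overlapped the next, so that these neighbours could not be put in order. SLC38A2, SLC7A1 and SLC38A1 were each apart from the next, the last from -0.33 to -0.15.

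The order of levels changed with these falls. In shCtrl cells SLC3A2 and SLC7A5 overlapped at the top, followed by SLC38A2, SLC1A5, SLC38A1, SLC7A1, SLC7A11, SLC43A1, SLC1A4 and SLC6A9, each apart from the next. In KD cells SLC38A2 led at 234 TPM, SLC3A2 and SLC7A5 shared the next place, SLC7A11 overlapped SLC43A1, and SLC1A4 fell to the last place behind SLC6A9. Within the summed TPM of the 10 members, SLC38A2 took 22.7% ± 0.409 (SD, n = 3) in shCtrl cells and 34.7% ± 0.746 (SD, n = 3) in KD cells, and SLC38A1 took 3.38% ± 0.0652 (SD, n = 3) and 7.01% ± 0.225 (SD, n = 3). The share of SLC3A2 went from 28.2% ± 0.46 (SD, n = 3) to 18.4% ± 0.764 (SD, n = 3). None of these shares overlapped between the groups, and each exact permutation test, two-sided, gave the smallest possible p of 0.1.

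Other amino acid transporters moved both ways. Of 42 listed, 19 passed the filter, and 8 of them (42.1%) were lower and 5 (26.3%) higher at a limma adjusted p under 0.05, with a median log2 fold change of -0.12. Of all genes tested, 25.9% were lower and 28.5% higher. With TPM as deposited the counts were 8 and 3, beside 40.3% and 16.3% of all genes tested. SLC36A4, a proton-independent carrier of proline and tryptophan, fell from 12.01, 13.29 and 12.40 TPM to 3.75, 3.71 and 5.06 TPM (log2 fold change -1.19, limma adjusted p = 0.000138). SLC38A7, a lysosomal glutamine carrier, fell from 7.71 ± 0.826 to 3.37 ± 0.42 TPM (mean ± SD, n = 3 each), a log2 fold change of -0.79. SLC38A5 (SNAT5), a glutamine, serine and glycine carrier, measured 30.34, 25.36 and 28.06 TPM with shCtrl against 38.93, 42.52 and 40.34 TPM with KD. It rose by a log2 fold change of 0.77 (limma adjusted p = 0.000165) and was named after its values were seen. Of all 197 other solute carriers tested, 72 (36.5%) were lower and 40 (20.3%) higher, with a median of -0.12. With TPM as deposited 109 (55.3%) were lower and 17 (8.63%) higher, beside 40.3% and 16.3% of all genes tested.

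Among transcriptional regulators and stress kinases known to act on these carriers, 8 of 12 (66.7%) fell and 4 (33.3%) rose, with a median log2 fold change of -0.80. The shares of all genes tested were 25.9% and 28.5%. ATF4 measured 746.90, 740.20 and 726.34 TPM with shCtrl against 386.88, 386.45 and 397.83 TPM with KD. Its mRNA fell by about as much as that of SLC38A2, with a log2 fold change of -0.67 (SE 0.02, limma adjusted p = 1.23e-06). ATF4 is controlled mainly through translation, and its protein was not measured in these libraries. DDIT3 (CHOP), a stress-induced partner of C/EBP proteins, fell from 341 ± 12.5 to 27.4 ± 1.07 TPM (mean ± SD, n = 3 each), and TRIB3, a pseudokinase that restrains ATF4, from 136 ± 3.68 to 29.4 ± 0.993 TPM (mean ± SD, n = 3 each). ATF3 had a log2 fold change of -1.13. CEBPB, a partner of ATF4, had a log2 fold change of -1.56 with a standard error of 0.23, with shCtrl replicate 1 at 44.72 TPM and the other shCtrl libraries at 75.92 and 77.99 TPM. NFE2L2, which induces SLC7A11, fell (log2 fold change -0.61), and KEAP1, the repressor that binds its protein, rose by 0.48 (limma adjusted p = 3.19e-05), and by 0.24 with TPM as deposited. BACH1 of the same list also fell, from 17.43, 9.74 and 11.32 TPM to 4.96, 5.43 and 4.94 TPM (log2 fold change -0.92, limma adjusted p = 0.00591). Whether any of these bears on SLC7A11 was not tested. MYC, which induces SLC7A5 and SLC1A5 in many cancer cells, rose by a log2 fold change of 0.42 (limma adjusted p = 1.5e-05), as did the amino acid sensing kinase EIF2AK4 (GCN2) by 0.39, and both were higher with TPM as deposited. The stress kinase EIF2AK3 (PERK) rose by 0.53 (limma adjusted p = 0.00203), and by 0.32 with TPM as deposited (limma adjusted p = 0.0208). CEBPG of the same list fell, with a log2 fold change of -0.96 (limma adjusted p = 3.83e-06). NFE2L2, KEAP1, BACH1, CEBPG, MYC, EIF2AK4 and EIF2AK3 were named after their values were seen.

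Genes of the growth kinase complex mTORC1, of its regulation and of amino acid sensing for it moved both ways. Of 15 tested, 5 (33.3%) were lower and 5 (33.3%) higher, near the 25.9% and 28.5% of all genes tested, with a median of 0.01. With TPM as deposited 5 (33.3%) were lower and 1 (6.67%) higher, beside 40.3% and 16.3% of all genes tested. The lower ones were led by DDIT4 (REDD1), an inhibitor of mTORC1 signaling, and SESN2, a leucine sensor, both of them known stress response targets. DDIT4 measured 800.52, 763.77 and 761.64 TPM with shCtrl against 127.92, 122.08 and 129.55 TPM with KD, a log2 fold change of -2.36. SESN2 fell from 79.1 ± 3.29 to 19.5 ± 0.432 TPM (mean ± SD, n = 3 each), a log2 fold change of -1.73 (limma adjusted p = 5.36e-07). MLST8, an mTORC1 subunit, rose by a log2 fold change of 0.48, and RRAGD, a Rag GTPase, by 0.47, the latter with an adjusted p from limma of 0.0623 with TPM as deposited.

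The list from cystine to glutathione held 10 genes, among them redox enzymes and enzymes that break glutathione down. Of these 10, 4 (40.0%) fell and 4 (40.0%) rose, beside 25.9% and 28.5% of all genes tested, with a median of 0.07. With TPM as deposited 4 fell and 3 rose, beside 40.3% and 16.3% of all genes tested. The largest fall was that of CHAC1, an enzyme that degrades glutathione, from 146.98, 143.46 and 136.39 TPM to 13.78, 14.23 and 13.83 TPM (log2 fold change -3.02, limma adjusted p = 8.79e-08). CTH, which makes cysteine from cystathionine, fell with a log2 fold change of -0.77. TXNRD1, thioredoxin reductase, rose by 0.52 and AIFM2, a ferroptosis suppressor, by 0.38. Of the glutathione synthesis enzymes on the list, GSS fell (log2 fold change -0.28) and GCLC rose by 0.19. GCLC did not pass with TPM as deposited (limma adjusted p = 0.426), and GCLM did not pass with the trimmed mean scaling (limma adjusted p = 0.816). GSS, GCLC and GCLM were named after their values were seen.

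Enzymes of glutamine, glutamate and asparagine metabolism were lower in 8 of 12 cases (66.7%) and higher in 1 (8.33%), beside 25.9% and 28.5% of all genes tested, with a median of -0.35. With TPM as deposited 11 were lower and 1 higher, beside 40.3% and 16.3% of all genes tested. ASNS, which makes asparagine from glutamine and aspartate, measured 256.18, 241.83 and 264.97 TPM with shCtrl against 70.87, 73.74 and 82.28 TPM with KD (log2 fold change -1.49, limma adjusted p = 3.77e-06). GPT2, the mitochondrial alanine transaminase, had a log2 fold change of -1.60, PSAT1 of the serine pathway -1.51 and ALDH18A1 of proline synthesis -1.02. Among 8 tested membrane partners and ubiquitin ligases of the carriers, 3 (37.5%) fell and 2 (25.0%) rose, beside 25.9% and 28.5% of all genes tested. With TPM as deposited 7 (87.5%) fell and 0 rose, beside 40.3% and 16.3% of all genes tested. With upper quartile scaling 5 (62.5%) fell and 1 (12.5%) rose, beside 30.8% and 23.5%. How far this list stood from all genes tested thus depended on the scaling. RNF5, a ubiquitin ligase reported to act on SLC1A5 and SLC38A2, fell from 44.1 ± 1.15 to 17.2 ± 0.298 TPM (mean ± SD, n = 3 each), a log2 fold change of -1.07, and NEDD4 fell with -0.36. OTUB1, a deubiquitinase that stabilizes SLC7A11, had a log2 fold change of 0.34, and of 0.10 with TPM as deposited, where it did not pass (limma adjusted p = 0.15). BSG, a CD98 partner, was higher by 0.14 and lower with TPM as deposited, at -0.11 (limma adjusted p = 0.00999).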

How the data were processed

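RNA-seq was done on 3 shCtrl and 3 GMDS-AS1 KD libraries of HCT116 cells. Per the methods, the authors evaluated expression with Cufflinks and RSEM and compared groups with DESeq2; the submitters' processing notes name Trimmomatic, TopHat2 2.1.1 and GRCh38 (p13). The deposited values are TPM by Ensembl gene from the authors, which keep no read total, so the depth behind each value is unknown and no counting interval is given. Lines of 2 genes were broken and left out. TPM totals were 991058 to 992992.

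Tests covered genes that reached 0.5 TPM in 3 or more libraries. Libraries were scaled by a trimmed mean of M-values on TPM (30% of log ratios and 5% of means trimmed), and log2(TPM + 1) was compared with limma 3.58.1 in R 4.3.3, two-sided, with a variance trend and Benjamini-Hochberg adjustment over all genes. The fit was tested on simulated data with few changed genes, as many raised as lowered. That setting cannot check the scaling where many genes change, as they did here. Within-library ratios were compared by exact permutation tests in scipy 1.17.1.

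The members and lists were chosen with earlier results of these data known. The genes named are the members, ATF4, GMDS-AS1 and up to 4 genes per list with the largest change at an adjusted p under 0.05 and at least 5 TPM in a group. SLC7A8, SLC38A5, NFE2L2, KEAP1, BACH1, CEBPG, MYC, EIF2AK4, EIF2AK3, GSS, GCLC and GCLM were named in addition, after their values were seen. So were the solute carriers of the closing section. SAMTOR was not found among the symbols, and BMT2, an earlier name of the same gene, was used. Protein identity between members was planned and not run. Counting by strand and the annotation release are not given in the sources used here. Promoter sequences came from RefSeq.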

Additional observations from a re-analysis of the deposited data

How the results depend on the processing

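All 10 members were lower at a limma adjusted p under 0.05 in each of 130 refits, 13 for each member, covering 2 other scalings, a pseudocount of 0.1, 2 other filters, no variance trend, the replicate block and each library left out, and the largest adjusted p was 0.00801. SLC43A1 passed 2-fold only with TPM as deposited (-1.01). Libraries of the same number did not deviate together (correlations of 0.029, -0.038 and 0.014), so the numbers were not taken as pairs. With the replicate block, 4095 genes were lower and 4536 higher, GMDS-AS1 had a limma adjusted p of 0.0518, SLC7A5 had a log2 fold change of -1.90 (limma adjusted p = 4.43e-05), SLC38A1 had -0.24 (adjusted p = 0.00623), and no call of a member changed. TPM as deposited moved the genes lower in KD cells to 6814 and those higher to 2756. Genes changed at least 2-fold moved to 1177 lower and 225 higher. The pseudocount of 0.1 gave 1468 lower and 741 higher at least 2-fold, in place of 717 and 495 with a pseudocount of 1. Against the trimmed mean, TPM as deposited gave 3 higher other amino acid transporters, 1 higher gene of mTORC1 sensing, 7 lower and 0 higher membrane partners and ligases, and 109 lower and 17 higher other solute carriers. Upper quartile scaling gave 5 lower and 1 higher membrane partners and ligases. Of all genes tested, 40.3% were lower and 16.3% higher with TPM as deposited, and 30.8% and 23.5% with upper quartile scaling. The median of all genes was -0.20 and -0.07 under these scalings, and the cause of these moves was not tested. With only the 250 bases before the start, 1 member held TGATGNAA in place of 5. TPM keep no read depth, so the low levels of SLC1A4 and SLC6A9 in KD cells have no counting error here, and bulk RNA does not show protein or transport.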

Other observations

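Among the mitochondrial carriers of the SLC25 family, 42 were tested, and 13 (31.0%) were higher and 10 (23.8%) lower in GMDS-AS1 KD cells, near the 28.5% and 25.9% of all genes tested. The genes named here were picked after their values were seen, from among the other solute carriers with the largest change, at a limma adjusted p under 0.05 and at least 5 TPM in a group. SLC25A22, a mitochondrial glutamate carrier, measured 22.84, 21.09 and 18.31 TPM with shCtrl against 74.38, 71.61 and 70.29 TPM with KD. No shCtrl library came near a KD library, and the log2 fold change was 1.99 (limma adjusted p = 2.31e-06). SLC25A1, the citrate carrier, went from 34.1 ± 1.3 to 66.5 ± 1.71 TPM (mean ± SD, n = 3 each). The folate carrier SLC25A32 had a log2 fold change of 1.07, the ADP/ATP translocase SLC25A5 of 0.98 and the branched-chain amino acid carrier SLC25A44 of 0.88, and all of these were also higher with TPM as deposited. The median of the family was 0.09. With TPM as deposited 18 (42.9%) were lower and 7 (16.7%) higher, near the 40.3% and 16.3% of all genes tested.

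On the side of the falls, SLC22A31 went from 20.30, 20.17 and 19.46 TPM to 6.17, 7.05 and 6.13 TPM (log2 fold change -1.27, limma adjusted p = 1.38e-05). SLC2A8, an intracellular glucose transporter, went from 11.06, 15.28 and 12.19 TPM to 3.64, 3.68 and 4.85 TPM, and SLC25A45, a carrier of the same mitochondrial family, from 5.74 ± 0.0929 to 1.67 ± 0.23 TPM (mean ± SD, n = 3 each). Of the 136 solute carriers tested outside the SLC25 family and the amino acid lists, 54 (39.7%) were lower and 22 (16.2%) higher, beside 25.9% and 28.5% of all genes tested. With TPM as deposited 83 (61.0%) were lower and 7 (5.15%) higher, beside 40.3% and 16.3% of all genes tested.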
